A study of Homo sapiens with 18 samples.

Results

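The 10 genes described here are the cyclin-dependent kinase (CDK) inhibitors CDKN1A, CDKN1B, CDKN1C, CDKN2A, CDKN2B, CDKN2C and CDKN2D and the D-type cyclins CCND1, CCND2 and CCND3. They were taken by symbol from the 25369 genes of the count table. RNA was measured by poly(A) RNA sequencing in D425 and D458, established Group 3 medulloblastoma cell lines, in 18 libraries. Each line had 3 libraries of cells carrying a non-targeting control shRNA and 3 for each of a pair of short hairpin RNAs against EYA2, a transcriptional co-activator with phosphatase activity: EYA2 shRNA#6 and EYA2 shRNA#8 in D425, and EYA2 shRNA#7 and EYA2 shRNA#8 in D458, called hairpins 6, 7 and 8 below. Cells of all 6 groups, controls included, were transduced, kept in puromycin at 1 ug/mL for 48 hours, sorted for the brightest 10% of zsGreen, which the constructs encode, and left to recover for 24 hours. Hairpin 8 was used in both lines, hairpin 6 in D425 and hairpin 7 in D458, so the lines share 1 of their hairpins. The series describes the 3 replicates of each group as independent. The sample descriptions also hold a string that reads as a date, whose meaning is not stated. In every group replicate 1 has a different string from the other libraries, which share theirs. Whether this bears on calls lost without replicate 1 was not tested.

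CDK inhibitors and D-type cyclins set the pace of the G1 phase of the cell cycle. D-type cyclins bind and activate CDK4 and CDK6, which phosphorylate the retinoblastoma protein RB and release E2F transcription factors from it. The INK4 inhibitors (CDKN2A to CDKN2D) bind CDK4 and CDK6 themselves, while the CIP/KIP inhibitors (CDKN1A to CDKN1C) bind cyclin-CDK complexes, including those of CDK2. Group 3 medulloblastoma is a cerebellar tumour often driven by high MYC.

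Libraries held 21260369 to 31552051 counts, and 14850 genes passed the filter on low counts. The 8 Group 3 markers summed to 5425 to 6229 CPM (counts scaled to a common library size) in D425 controls. With hairpins 6 and 8 they summed to 4509 to 5152 and 4271 to 5026, without overlap. In D458 they summed to 6305 to 6823 CPM in controls, 5605 to 6471 with hairpin 7 and 5286 to 6477 with hairpin 8. MYC and OTX2, at means of 3581 and 1667 CPM in D425 controls, made up most of this sum. Mean MYC, OTX2, GABRA5 and CRX were lower than control with both D425 hairpins. Mean IMPG2, NRL and EYS were higher with both, EYS going from 6.39 to 13.6 and 15.7 CPM. NPR3 held at most 6 counts in any group and 0 in D458 controls. Astrocyte and oligodendrocyte markers summed to 56.8 to 70.3 CPM in D425 controls and 108 to 134 in D458. With D425 hairpins 6 and 8 they summed to 46.4 to 56.7 and 34.6 to 48.0. SLC1A3 made up most of the D425 control sum, and its mean went from 47.7 CPM to 32.5 and 24.02. Mean OLIG2 went the other way, from 15.03 CPM to 18.93 and 17.95. The remaining genes of this set averaged under 1 CPM in D425, so the lower sum was that of SLC1A3 and not of the set. Immune and endothelial markers summed to at most 3.47 CPM. EYA2 was at 15.5 to 43.6 CPM in the D425 controls, 9.72 to 15.1 with hairpin 6 and 12.04 to 17.5 with hairpin 8, and its fall passed the test with both, though the hairpin 8 call held in 3 of 6 fits without 1 library (lost without control replicate 1 or hairpin 8 replicate 2 or 3, adjusted p up to 0.0865). In D458, EYA2 was at 67.5 to 73.7 CPM in controls, 18.2 to 23.5 with hairpin 8, where its fall passed the test, and 45.1 to 51.9 with hairpin 7, where the log2 change of -0.55 did not pass (adjusted p = 0.137; 0.00692 with the replicate number as a block). Fibroblast and mesenchymal markers (6 genes) summed to 18.5 to 33.1 CPM in D425 controls against 42.6 to 85.2 and 50.9 to 95.6 with hairpins 6 and 8, and to 6.89 to 8.44 CPM in D458 controls, with COL3A1 at 0 counts, against 34.3 to 55.6 and 32.2 to 60.9 with hairpins 7 and 8. The sum of these markers was higher with every hairpin group that the results below rest on, and COL1A1 rose most in D425. Not every gene rose. Mean DCN was lower than control with D425 hairpin 6, and mean COL1A2 was lower with D458 hairpin 8. All other hairpin group means of these genes were above control. The part of these markers in the results below was not tested. Fewer cells of one state and less RNA per cell cannot be told apart in bulk RNA.

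The promoters of the members that changed most are shown first, because CDKN2A and CDKN2B are neighbours on chromosome 9 and moved together. Each sequence below is the 250 bases before an annotated transcription start, 5′ to 3′ on the gene's strand, from RefSeq on GRCh38.p14, matched by symbol. Capitals mark the GC box GGGCGG or its reverse complement CCGCCC, a motif that Sp1-family factors can bind.
CDKN1A, chr6:36678464-36678713, + strand: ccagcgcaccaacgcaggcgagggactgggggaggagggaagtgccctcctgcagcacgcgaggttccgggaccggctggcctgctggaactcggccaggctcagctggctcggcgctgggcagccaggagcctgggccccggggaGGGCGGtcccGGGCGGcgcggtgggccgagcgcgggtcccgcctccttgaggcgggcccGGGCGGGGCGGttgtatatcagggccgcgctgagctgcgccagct
CDKN2A, outer start, chr9:21995325-21995574, - strand: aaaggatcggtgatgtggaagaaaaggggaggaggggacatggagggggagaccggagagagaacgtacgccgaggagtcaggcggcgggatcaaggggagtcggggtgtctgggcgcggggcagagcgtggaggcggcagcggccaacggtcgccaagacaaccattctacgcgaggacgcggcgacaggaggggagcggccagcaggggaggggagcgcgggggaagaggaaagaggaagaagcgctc
CDKN2A, inner start, chr9:21974858-21975107, - strand: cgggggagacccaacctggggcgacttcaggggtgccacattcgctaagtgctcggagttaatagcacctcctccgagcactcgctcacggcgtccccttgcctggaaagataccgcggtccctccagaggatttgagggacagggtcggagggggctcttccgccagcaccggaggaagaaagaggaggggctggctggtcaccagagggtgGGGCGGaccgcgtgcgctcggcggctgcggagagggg
CDKN2B, chr9:22009306-22009555, - strand: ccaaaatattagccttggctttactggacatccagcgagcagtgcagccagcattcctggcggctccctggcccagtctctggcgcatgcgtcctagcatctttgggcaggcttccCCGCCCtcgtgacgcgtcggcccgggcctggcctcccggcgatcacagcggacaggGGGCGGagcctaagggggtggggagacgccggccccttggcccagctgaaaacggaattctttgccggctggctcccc
CDKN2C, middle start, chr1:50968456-50968705, + strand: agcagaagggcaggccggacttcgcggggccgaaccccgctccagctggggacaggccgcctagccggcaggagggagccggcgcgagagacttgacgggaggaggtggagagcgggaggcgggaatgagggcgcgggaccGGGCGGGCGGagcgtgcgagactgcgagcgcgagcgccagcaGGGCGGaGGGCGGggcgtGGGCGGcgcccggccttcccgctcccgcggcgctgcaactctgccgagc
CDKN2A has a pair of starts: the outer one makes the p14ARF transcript, whose product stabilises p53, and the inner one makes the p16INK4a transcript, and the counts do not separate these transcripts. A GC box was found on either strand in 42.6% of 35116 promoters of the same length. The CDKN1A promoter held 4 (one pair overlapping), CDKN2B held 2, the inner CDKN2A start held 1, the outer held 0, and the middle CDKN2C start held 5 (one pair overlapping). The E-box CACGTG, in 6.34% of all these promoters, and the TATA-box string TATAAA, in 10.7%, were not in the 5 sequences shown. The other CDKN2C starts, not printed, each held 1 CACGTG, and one of them 1 GC box. Promoters were also matched for CDKN1B, CDKN2D and CCND3; CDKN1C, CCND1 and CCND2 had no entry.

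Values per library are CPM scaled by trimmed mean of M values (TMM) factors, in the order of replicates 1, 2 and 3, and fold changes are log2 ± standard error (SE) from edgeR's quasi-likelihood test with Benjamini-Hochberg adjustment over all 14850 genes, called at an adjusted p under 0.05. With hairpin 6 in D425, 4 of the 9 members tested rose and 0 fell, where 14.1% of all tested genes were called (7.31% higher, 6.84% lower). With hairpin 8 in D425, 4 rose and 1 fell (21.7% of all genes called, 11.6% higher and 10.1% lower). In D458, 2 rose and 0 fell with hairpin 7 (22.6% of all genes called, 11.5% higher and 11.1% lower), and 1 rose and 0 fell with hairpin 8 (23.2% of all genes called, 12.1% higher and 11.1% lower). At an unadjusted p under 0.05, the members lower than control numbered 2, 2, 1 and 1 in these comparisons by edgeR. The median log2 change over the 9 members was 2.50, 2.17, 0.74 and 0.64, beside medians of 0.01, 0.02, 0.01 and 0.01 over all genes tested. CCND1 failed the filter, and CDKN1C and CCND2 reached its level of 0.393 CPM in 11 libraries each and CDKN2B in 15. These 3 passed with the help of the groups in which they were high. Their calls, and the member medians that include them, are not independent of the filter. Among the members at that level in all 18 libraries, CDKN1A and CDKN2A were higher than control in both D425 comparisons. CDKN1B, CDKN2C, CDKN2D and CCND3 were lower there. With the replicate number as a block within each line, the members called were 8, 9, 7 and 5, where that fit called 27.8%, 37.2%, 40% and 39.6% of all genes. Unless another tool or fit is named, a p without the block comes from the edgeR fit over all 18 libraries.

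**Figure D1:**
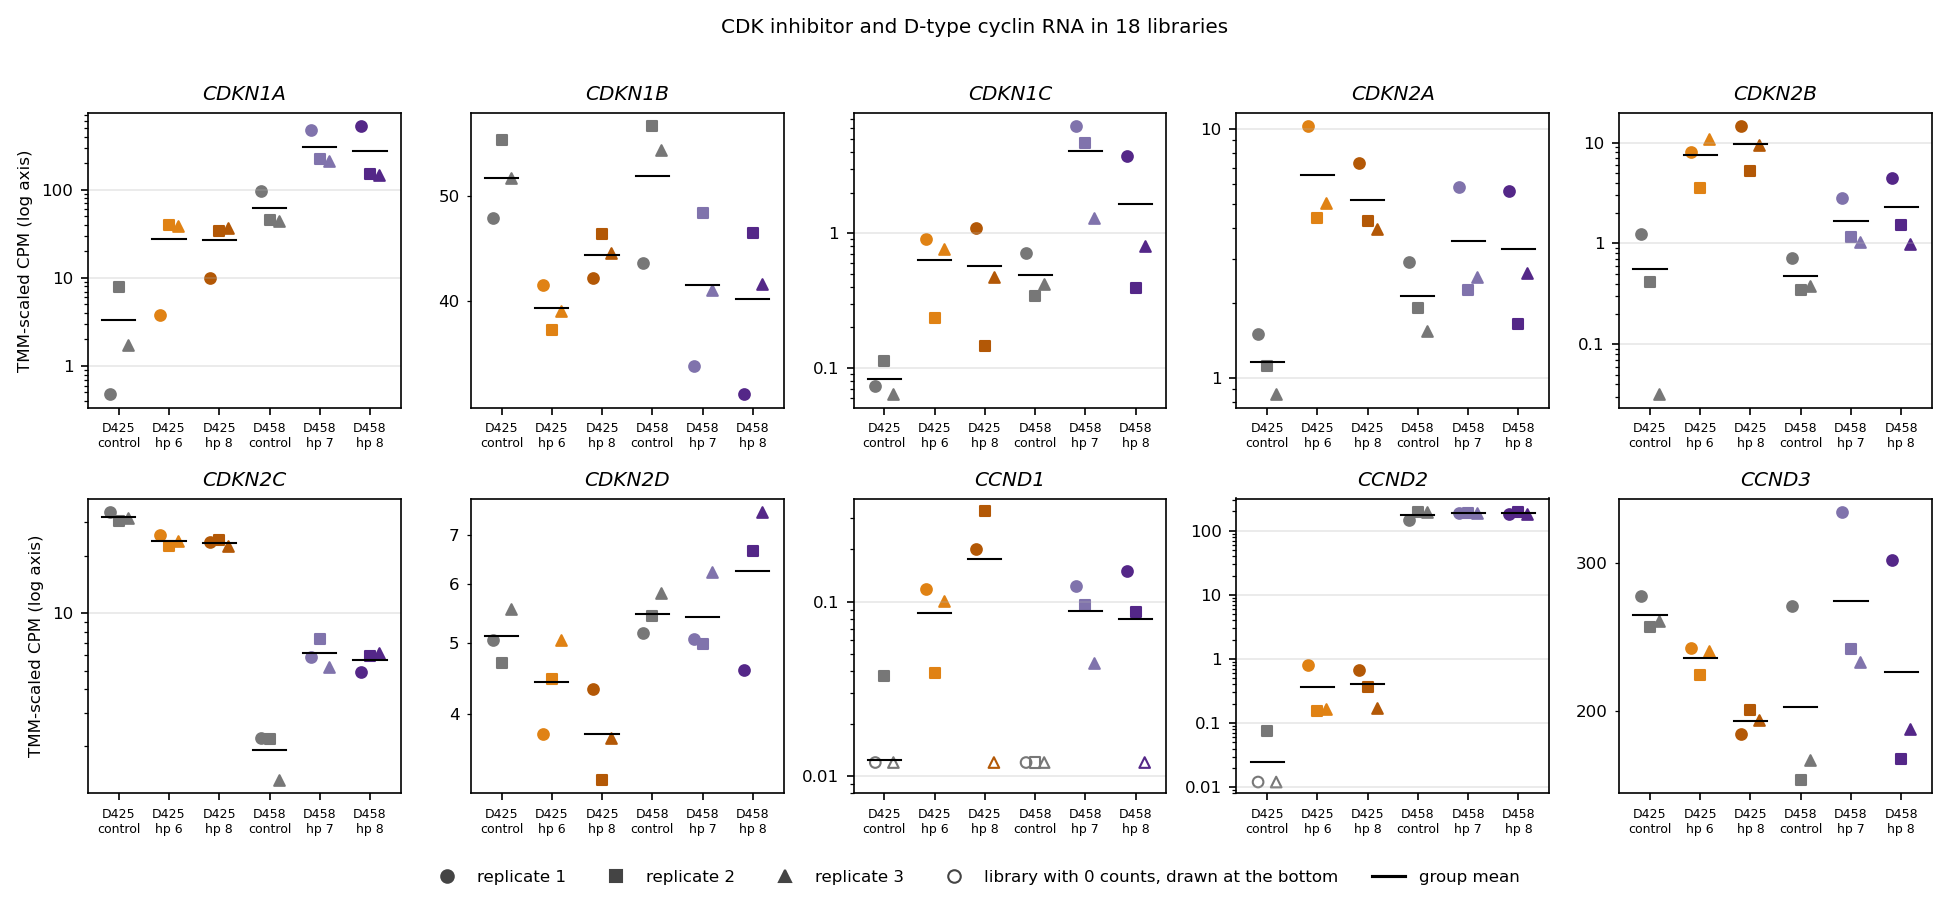
TMM-scaled CPM of the 10 genes in each of the 18 libraries on log axes, with 1 panel per gene, 3 libraries per group (hp, hairpin), marker shapes for replicate numbers, and bars for group means. CDKN2C lies between 1.33 and 7.28 CPM in all D458 libraries and between 22.4 and 33.9 in D425, and CCND2 is near 0 in D425 and between 145 and 196 in D458.

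CDKN1A encodes p21, a broad CDK inhibitor and a direct p53 target. It was higher in every hairpin library than in the control library of the same number and line. CDKN1A was thus higher in 12 of 12 pairs, which share controls and are not independent. In D425 its controls were at 0.475, 7.83 and 1.71 CPM, hairpin 6 at 3.84, 40.3 and 38.3, and hairpin 8 at 9.85, 34.2 and 36.6. The 3 hairpin 8 libraries lay above all controls, while replicate 1 of hairpin 6 lay below control replicate 2. CDKN1A rose by 3.06 ± 0.95 with hairpin 6 (adjusted p = 0.0429) and by 3.03 ± 0.95 with hairpin 8 (adjusted p = 0.0336), about 8.36-fold and 8.16-fold. In D458 its level was higher from the start, at 97.1, 45.7 and 43.9 CPM in controls, 480, 224 and 214 with hairpin 7, and 524, 149 and 147 with hairpin 8, with no overlap between hairpin and control libraries. The D458 differences of 2.30 ± 0.82 and 2.14 ± 0.81 missed the threshold (adjusted p = 0.0546 and 0.0693), and passed with the replicate block (0.00113 and 0.00232) or when the D458 libraries were fitted alone (0.0222 and 0.0273). Same-numbered hairpin to control ratios in D458 were 4.94, 4.91 and 4.89 with hairpin 7 and 5.40, 3.27 and 3.35 with hairpin 8, closer together than the levels themselves. In D425 these ratios were further apart, at 8.07, 5.14 and 22.4 with hairpin 6 and 20.7, 4.37 and 21.4 with hairpin 8. Replicate 1 was the lowest library of every D425 group and the highest of every D458 group. The D425 calls were each lost without control replicate 1 or 3 or without replicate 2 or 3 of the hairpin, with adjusted p up to 0.167 for hairpin 6 and 0.128 for hairpin 8. They were also lost with no filter on low counts (0.101 and 0.0797) and with the D425 libraries fitted alone (0.106 and 0.0838). An RNA transcribed from the opposite strand, DINOL, overlaps CDKN1A in the annotation, and whether the counting used strand is not given in the sources used here.

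CDKN1B encodes p27, which holds cyclin E-CDK2 inactive in resting cells. Its differences were small and had 1 sign. The hairpin library was lower than the control library of its number in 12 of 12 pairs, which share controls. D425 controls were at 47.8, 56.3 and 52.0 CPM, hairpin 6 at 41.4, 37.6 and 39.2, and hairpin 8 at 42.1, 46.2 and 44.3. Both D425 hairpin groups lay below the controls without overlap. D458 controls were at 43.4, 58.0 and 55.2 CPM, hairpin 7 at 34.8, 48.3 and 41.0, and hairpin 8 at 32.8, 46.2 and 41.5, and here the groups overlapped. The log2 changes were -0.40 ± 0.13, -0.24 ± 0.13, -0.34 ± 0.14 and -0.38 ± 0.14 with D425 hairpins 6 and 8 and D458 hairpins 7 and 8. By edgeR over all 18 libraries none passed (adjusted p = 0.0571, 0.225, 0.0815 and 0.0531), and with the block all 4 did (0.000706, 0.0165, 0.00211 and 0.000905). DESeq2 without a block called D425 hairpin 6 (adjusted p = 0.0332) and D458 hairpin 8 (0.0455), and edgeR on the D425 libraries alone called hairpin 6 (0.013).

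CDKN1C encodes p57, an imprinted inhibitor active in differentiating progenitors, and was the scarcest CIP/KIP member. D425 controls held 2, 3 and 2 counts, hairpin 6 held 23, 6 and 23, and hairpin 8 held 33, 4 and 14. The summed counts gave ratios of 7.86 (95% counting interval 3.56 to 20.5) and 7.19 (3.25 to 18.8), and edgeR over all 18 libraries did not call them (adjusted p = 0.0864 and 0.0797; with the block 0.0146 and 0.0184). DESeq2 (adjusted p = 0.0179 and 0.02) and edgeR on the D425 libraries alone (0.0427 and 0.0378) did. In D458 the controls were at 0.711, 0.342 and 0.417 CPM, hairpin 7 at 6.21, 4.65 and 1.30, and hairpin 8 at 3.76, 0.391 and 0.807. CDKN1C rose by 3.03 ± 0.81 with hairpin 7 in D458 (adjusted p = 0.0153), with all 3 libraries above the controls. That call was lost without hairpin 7 replicate 1, control replicate 2 or control replicate 3 (adjusted p up to 0.0725). Hairpin 8 in D458 gave 1.76 ± 0.81 and overlapped the controls (adjusted p = 0.128; 0.0398 with the block).

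CDKN2A and CDKN2B, which encode p16INK4a with p14ARF and p15, had calls in both D425 comparisons that no single library undid. CDKN2A was at 1.5, 1.12 and 0.857 CPM in D425 controls, 10.2, 4.39 and 5.04 with hairpin 6, and 7.32, 4.28 and 3.98 with hairpin 8. Every hairpin library lay above every control. CDKN2A rose by 2.50 ± 0.50 (5.66-fold, adjusted p = 0.00357) and by 2.17 ± 0.50 (4.49-fold, adjusted p = 0.0061). The calls held in 6 of 6 fits that left out 1 library of the groups compared, with adjusted p up to 0.0274 and 0.0393. Both were lost when replicate number 2 or 3 was left out of every group. The adjusted p was then 0.0758 and 0.124 with hairpin 6 and 0.0626 and 0.112 with hairpin 8. Those fits called 116 and 135 of all genes with hairpin 6 and 878 and 513 with hairpin 8. In D458, CDKN2A was at 2.93, 1.91 and 1.54 CPM in controls, 5.84, 2.25 and 2.55 with hairpin 7, and 5.64, 1.65 and 2.63 with hairpin 8, with overlapping groups. The D458 differences of 0.74 ± 0.49 and 0.64 ± 0.48 did not pass (adjusted p = 0.276 and 0.352; with the block 0.0215 and 0.0516).

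CDKN2B is known as an inhibitor induced by transforming growth factor beta (TGF-beta). It was at 1.24, 0.410 and 0.0318 CPM in D425 controls (34, 11 and 1 counts), 7.99, 3.57 and 10.9 with hairpin 6, and 14.5, 5.23 and 9.39 with hairpin 8, without overlap. CDKN2B rose by 3.76 ± 0.78 with hairpin 6 (adjusted p = 0.00478) and by 4.13 ± 0.78 with hairpin 8 (adjusted p = 0.00194). Without control replicate 3, which held 1 count, the log2 changes were 3.17 and 3.54 and still passed. Without control replicate 1 they were 5.12 and 5.50. With replicate number 2 or 3 left out of every group, CDKN2B lost its hairpin 6 call (adjusted p = 0.105 and 0.133). It kept its hairpin 8 call (0.0486 and 0.0445). In D458 it was at 0.711, 0.342 and 0.375 CPM in controls, 2.84, 1.15 and 1.03 with hairpin 7, and 4.44, 1.52 and 0.977 with hairpin 8. All 6 hairpin libraries lay above the 3 controls. The D458 changes of 1.81 ± 0.85 and 2.28 ± 0.83 did not pass by edgeR over all 18 libraries (adjusted p = 0.131 and 0.0581) and passed with the block (0.0363 and 0.0113). For hairpin 8, DESeq2 (adjusted p = 0.0353) and edgeR on the D458 libraries alone (0.0366) also passed.

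The neighbours of this pair on chromosome 9 were read to see whether the rise was shared by the locus. Of 5 neighbouring genes, MTAP, CDKN2B-AS1 and KLHL9 were tested, DMRTA1 had at most 15 counts in any group and IFNE had 0 counts in all 18 libraries. None of the 3 was called in D425 by edgeR over all 18 libraries, where 1 and 2 were higher at an unadjusted p under 0.05 with hairpins 6 and 8 and DESeq2 called 0 and 1 higher. With hairpin 8, edgeR on the D425 libraries alone, or without control replicate 1 or hairpin 8 replicate 2, also called 1 higher. MTAP, a methionine salvage enzyme, was at 36.2 ± 5.59 CPM in D425 controls and 42.4 ± 2.83 and 47.2 ± 3.20 with the hairpins (mean ± SD, n = 3). With the block, MTAP and KLHL9 passed with D425 hairpin 8 (adjusted p = 0.0317 and 0.0191). In D458, MTAP was called lower with hairpin 7 (-0.49, adjusted p = 0.0386), a call lost in each of the 6 fits without 1 library of the groups compared. The antisense gene CDKN2B-AS1, which overlaps both inhibitors, was at 0.151 ± 0.036 CPM in D425 controls and 0.691 ± 0.283 with hairpin 6 (log2 2.15, adjusted p = 0.0662, 0.00785 with the block). With hairpin 8 it was at 0.415 ± 0.352 CPM (log2 1.44), which did not pass without or with the block (adjusted p = 0.201 and 0.083). Reads of the antisense gene and of the inhibitors cannot be told apart without strand. The median log2 change of 397 chromosome 9 genes averaging at least 8 CPM was -0.37 with hairpin 6 and -0.38 with hairpin 8 in D425, against -0.01 and -0.02 over all genes at that level. In D458 it was -0.014 with hairpin 7 and -0.0047 with hairpin 8, against -0.059 and -0.054. Whether this difference between the lines bears on CDKN2A and CDKN2B was not tested. 

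CDKN2C, which encodes p18, differed in the sign of its change between the lines, as did CCND3, described below. In D425 it was at 33.9, 30.4 and 31.6 CPM in controls, 25.6, 22.4 and 23.8 with hairpin 6, and 23.6, 24.1 and 22.5 with hairpin 8, so that every hairpin library lay below every control. In D458 it was at 2.22, 2.20 and 1.33 CPM in controls, 5.92, 7.28 and 5.24 with hairpin 7, and 4.93, 5.96 and 6.16 with hairpin 8, so that every hairpin library lay above every control. CDKN2C rose in D458 by 1.68 ± 0.17 (3.21-fold, adjusted p = 2.3e-05) and by 1.57 ± 0.17 (2.97-fold, adjusted p = 3.93e-05), and both calls held in 6 of 6 fits without 1 library. In D425 it fell by 0.45 on the log2 scale with hairpin 8 (SE 0.14, adjusted p = 0.0316), while the change of -0.42 ± 0.14 with hairpin 6 missed the threshold (adjusted p = 0.0592; 0.0113 with the block, 0.00614 by DESeq2 and 0.0145 with the D425 libraries alone). The D425 hairpin 8 call was lost in each of the 6 fits that left out 1 library of control or hairpin 8 (adjusted p between 0.0518 and 0.0854). The change with hairpin 8, the hairpin common to both lines, was 2.02 ± 0.22 higher in D458 than in D425 by a test of the difference (adjusted p = 5.6e-05), a contrast in which 11.8% of all genes were called (6.19% higher, 5.65% lower).

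CDKN2D, which encodes p19INK4d, was called in none of the 4 comparisons by edgeR over all 18 libraries. It ranged from 3.26 to 5.56 CPM over the 9 D425 libraries and from 4.59 to 7.52 over the 9 D458 libraries. The D425 hairpin 8 libraries, at 4.32, 3.26 and 3.71 CPM, lay below the controls at 5.05, 4.70 and 5.56 (-0.44 ± 0.19, adjusted p = 0.111; 0.0459 with the block). The other 3 comparisons gave -0.20 ± 0.19, -0.01 ± 0.19 and 0.19 ± 0.19, with adjusted p of 0.532, 0.972 and 0.492.

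**Figure D2:**
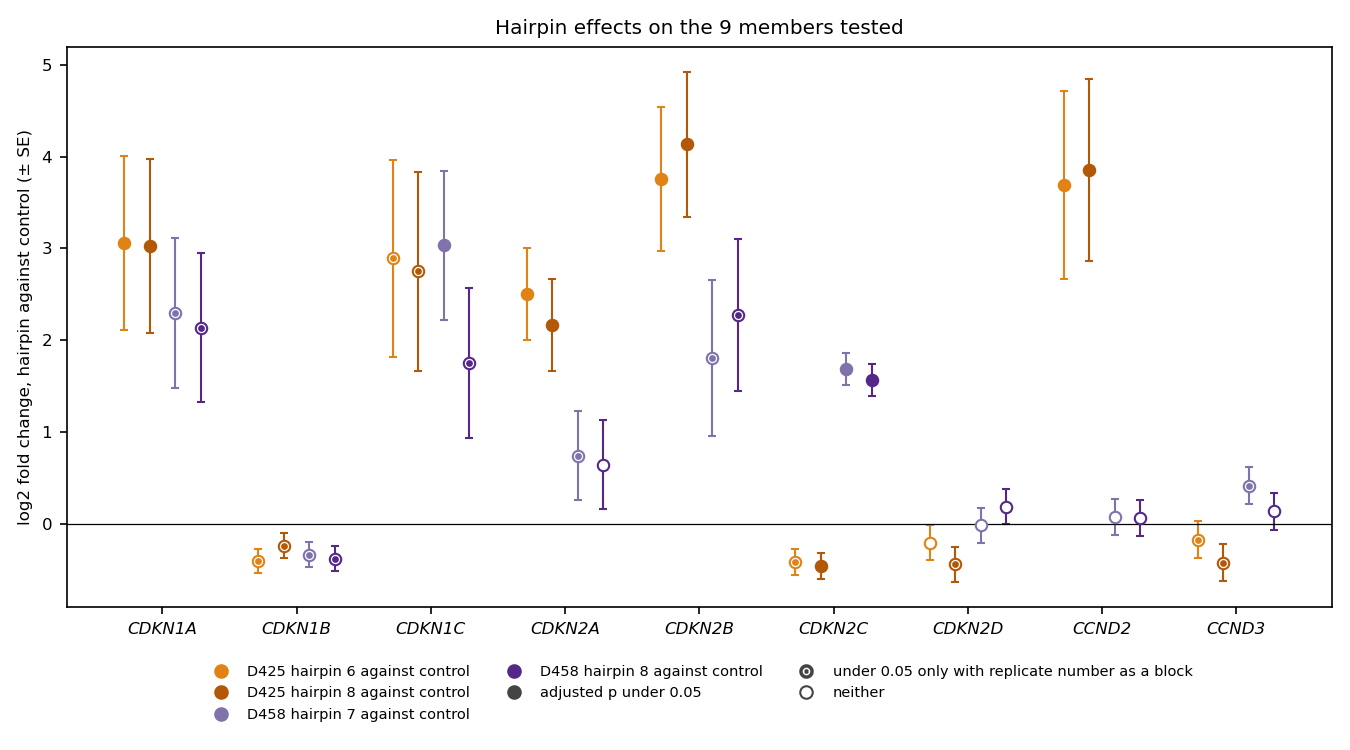
Log2 fold change of the 9 tested members with each hairpin against the control of its line, with SE bars. CDKN2A and CDKN2B lie between 2.17 and 4.13 in D425 and between 0.64 and 2.28 in D458, CDKN1B lies between -0.40 and -0.24 in all 4 comparisons, and CDKN2C lies below 0 in D425 and above 0 in D458.

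CCND3 carried most of the D-type cyclin RNA of both lines. It was at 274, 251 and 256 CPM in D425 controls, 237, 221 and 236 with hairpin 6, and 188, 200 and 195 with hairpin 8. The hairpin libraries lay below the controls in both cases, by -0.17 ± 0.20 (adjusted p = 0.632; 0.0442 with the block) and -0.42 ± 0.20 (adjusted p = 0.147; 7.7e-05 with the block and 0.0028 with the D425 libraries alone). In D458 it was at 267, 166 and 175 CPM in controls, 345, 237 and 229 with hairpin 7, and 302, 175 and 191 with hairpin 8, and each hairpin library was above the control of its number. The differences of 0.42 ± 0.20 and 0.14 ± 0.20 did not pass (adjusted p = 0.139 and 0.647), and with the block the first did (0.000102) and the second did not (0.0989). D458 replicate 1 was the highest CCND3 library in each of the 3 D458 groups. With the block, the hairpin 8 change differed between the lines for CCND3 (0.55 higher in D458, adjusted p = 0.000287) and for CDKN2A (-1.59, adjusted p = 0.00167), and without it neither difference passed (0.213 and 0.163). That blocked comparison called 4 of the 9 members, where 26.5% of all genes were called.

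CCND2 was a marker of the line more than of the hairpins. In D458 it was at 145, 196 and 196 CPM in controls, 191, 186 and 190 with hairpin 7, and 182, 196 and 183 with hairpin 8, with changes of 0.08 ± 0.20 and 0.07 ± 0.20 that did not pass (adjusted p = 0.804 and 0.839) and 95% intervals of -0.34 to 0.50 and -0.35 to 0.48. D425 held 0, 2 and 0 counts of CCND2 in controls, 20, 4 and 5 with hairpin 6, and 20, 10 and 5 with hairpin 8. The summed counts, 29 and 35 against 2, gave ratios of 15.3 (95% counting interval 3.88 to 133) and 17.3 (4.44 to 148). CCND2 was called higher in both D425 comparisons (adjusted p = 0.0243 and 0.0116). The first call was lost without control replicate 1, control replicate 3 or hairpin 6 replicate 1 (adjusted p up to 0.141) and with the D425 libraries fitted alone (0.0598), and the second without control replicate 3 or hairpin 8 replicate 1 (up to 0.0624). Its highest D425 level, 0.791 CPM, was far below the lowest D458 level. CCND2-AS1 overlaps CCND2 on the opposite strand.

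CCND1, the D-type cyclin of many other tumours, was near the limit of detection. Its counts were 0, 1 and 0 in D425 controls, 3, 1 and 3 with hairpin 6, 6, 9 and 0 with hairpin 8, 0 in all 3 D458 controls, 3, 2 and 1 with hairpin 7, and 4, 2 and 0 with hairpin 8. The D425 ratios were 7.41 (95% counting interval 0.951 to 334) and 14.8 (2.28 to 623). A count of 0 over the D458 controls allows up to 3 counts, or 0.0448 CPM. The 6 counts with each hairpin, taken as exact, were 1.98-fold and 1.83-fold above that limit. Counting error on the 6 counts was not included, so these are not lower limits.

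Levels of different genes were compared per kilobase (kb) of exon, using GENCODE v29 exon lengths. In D425 the summed INK4 RNA was 13.5 ± 0.81 CPM per kb in controls, 14.1 ± 1.85 with hairpin 6 and 13.6 ± 2.01 with hairpin 8 (SD, n = 3), differences smaller than the spread between replicates. Its makeup was not the same. The CDKN2C share was 71.2 ± 0.66% in controls, 51.6 ± 4.13% with hairpin 6 and 52.5 ± 7.70% with hairpin 8, while the CDKN2A share was 2.70 ± 0.65%, 14.5 ± 5.68% and 11.9 ± 2.45%, and the CDKN2B share 1.00 ± 1.06%, 12.8 ± 5.38% and 17.2 ± 5.98%. No hairpin library overlapped the controls in any of these 3 shares. In D458 the INK4 sum was 5.01 ± 0.17 CPM per kb in controls, 7.00 ± 0.62 with hairpin 7 and 7.49 ± 0.41 with hairpin 8, again without overlap, and CDKN2D held 72.8 ± 6.95% of it in controls against 51.9 ± 8.72% and 55.4 ± 12.4%. The CDKN2C share in D458 was 11.5 ± 2.81% in controls and 26.7 ± 6.06% and 22.9 ± 2.64% with the hairpins. With 3 libraries against 3, an exact permutation test of such a sum or share, counting both directions, could not give a p under 0.05, so these are given as descriptions.

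CDKN1B made up 94.1 ± 6.25% of the CIP/KIP RNA of D425 controls, against 61.3 ± 23.7% with hairpin 6 and 62.2 ± 13.7% with hairpin 8. CDKN1A filled the difference, at 5.74 ± 6.23%, 37.3 ± 24.8% and 36.5 ± 14.9%. In D458, CDKN1A already held 53.5 ± 14.1% in controls and held 85.9 ± 5.62% with hairpin 7 and 83.1 ± 9.13% with hairpin 8. Among D-type cyclins, CCND3 held at least 99.7% in every D425 library, and 64.3 ± 9.42%, 69.7 ± 4.50% and 65.3 ± 7.09% in the D458 groups, CCND2 holding almost all the rest.

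**Figure D3:**
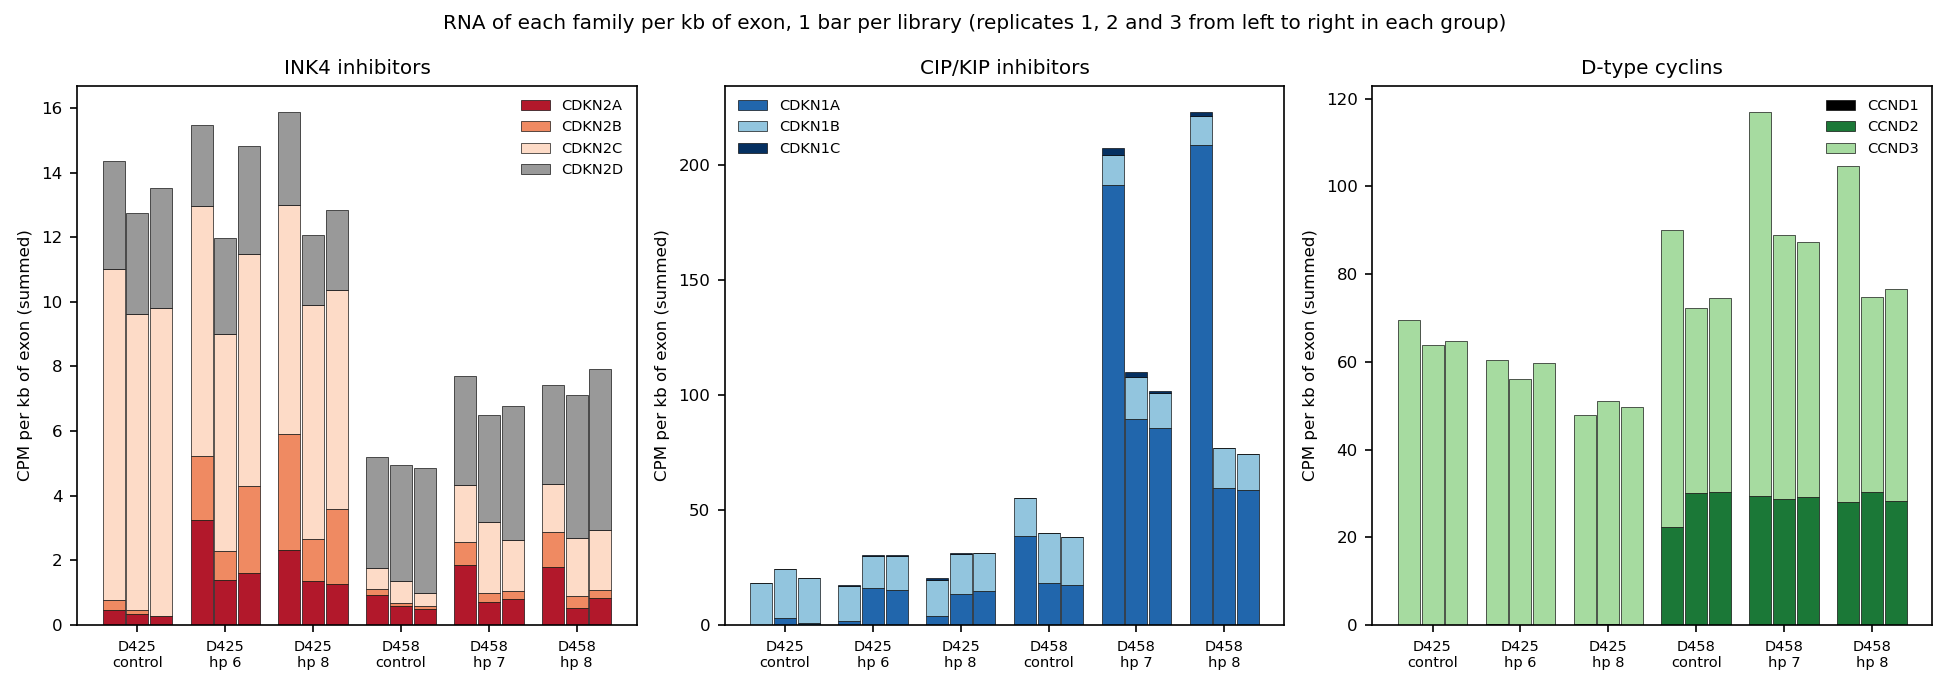
Summed CPM per kb of exon of the INK4 inhibitors, CIP/KIP inhibitors and D-type cyclins, 1 bar per library, split by gene. The D425 INK4 bars have similar heights (means 13.5 to 14.1) with a smaller CDKN2C block with each hairpin, and the D458 CIP/KIP bars with hairpins are mostly CDKN1A.

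The control libraries of the lines were also compared with each other. Of the 9 tested members, 2 were higher in D458 controls and 1 was lower, where 62.8% of all genes were called (31.4% in each direction). CDKN1A was higher in D458 controls by 4.24 ± 0.96 (18.9-fold, adjusted p = 0.00133), and CDKN2C was lower there by -4.06 ± 0.17 (16.7-fold, adjusted p = 8.5e-12). CCND2 held 11963 counts against 2, a ratio of 7653 (95% counting interval 2118 to 63201), and its fitted difference was called (adjusted p = 1.4e-12). For CDKN1B the difference was 0.00 ± 0.13, with a 95% interval of -0.28 to 0.29. With a block for replicate number shared by the lines, 6 members passed, where 67.8% of all genes were called.

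No member was called between hairpins 8 and 6 in D425 or hairpins 8 and 7 in D458 by edgeR, 0 had an unadjusted p under 0.05 and DESeq2 called 0, where edgeR called 0% of all genes in both. The log2 difference of EYA2 between hairpins 8 and 7 in D458, -1.24 ± 0.27, was not called by edgeR either. The absence of calls thus does not show that the hairpins acted alike. The D458 interval for CDKN1C was wide, at -1.28 with a 95% interval of -2.79 to 0.24, while for CDKN2C it was -0.11 with an interval of -0.44 to 0.22. In the comparison of the hairpin 8 changes between the lines, CCND2 was the other member called beside CDKN2C (-3.79 ± 1.02, adjusted p = 0.0258), on the 2 control counts of D425. That call was lost without D425 control replicate 1, D425 control replicate 3 or D425 hairpin 8 replicate 1 (adjusted p up to 0.0963).

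Besides the members, 37 genes of the RB pathway were read as a list, which was chosen with earlier results of these data known, and all 37 were tested. The list mixes partners and regulators of the members, such as CDK4 and SKP2, with genes downstream of them, such as CCNE1. Its counts are therefore not a readout of the inhibitors. With D425 hairpin 6, 0 rose (0 at an unadjusted p under 0.05 by edgeR and 0 by DESeq2) and 3 fell, with hairpin 8, 0 rose (2 unadjusted, 0 by DESeq2) and 5 fell, with D458 hairpin 7, 1 rose and 10 fell, and with D458 hairpin 8, 2 rose and 11 fell. Median log2 changes of the list were -0.04, -0.08, -0.25 and -0.24. Of all genes tested, 6.84%, 10.1%, 11.1% and 11.1% were called lower. With the replicate block the list genes that fell numbered 5, 9, 17 and 19, where 13.3%, 17.7%, 20% and 19.7% of all genes were called lower. Called in either direction without the block, the D425 shares of the list, 8.11% and 13.5%, were below those of all genes, 14.1% and 21.7%. The counts without the block depended on single libraries, as did those over all genes. Without 1 library, 926 to 2601, 1584 to 3440, 1283 to 2910 and 1458 to 3311 of all genes were called in the 4 comparisons. These ranges apply also to the lists below. Without replicate 1 of the hairpin, 0, 2, 2 and 2 fell. Without control replicate 3, 1, 3, 6 and 4 fell, without hairpin 6 replicate 3, 0 fell, and in D458, 6 and 3 fell without control replicate 1 and 7 with hairpin 8 without control replicate 2.

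E2F1, the first described E2F factor, fell in all 4 comparisons, from 159 ± 14.4 to 108 ± 6.39 and 94.9 ± 3.79 CPM in D425 and from 114 ± 7.98 to 79.5 ± 11.5 and 80.7 ± 21.1 CPM in D458 (SD, n = 3). The adjusted p values were 0.0189, 0.00235, 0.0211 and 0.0249. The hairpin 8 call in D425 held in 6 of 6 fits without 1 library, and the other 3 held in 3 of 6 each; each of those was lost without replicate 1 of control or of hairpin, and also without hairpin replicate 3 in D425 and control replicate 3 in D458. CCNE1, the E-type cyclin that E2F factors switch on, fell in D425 from 28.6 ± 2.42 to 20.8 ± 1.26 and 16.1 ± 1.33 CPM (adjusted p = 0.0236 and 0.000382), the first call lost in 3 of 6 fits without 1 library (hairpin 6 replicate 1 or 3, or control replicate 3). LIN52, a subunit of the DREAM complex, fell with hairpin 6 from 13.8 ± 0.93 to 9.91 ± 0.325 CPM, a call lost without the same libraries. MYBL2, a partner of that complex, fell with D425 hairpin 8 from 467 ± 42.9 to 264 ± 37.1 CPM (adjusted p = 0.0119), a call lost without hairpin 8 replicate 1. In D458, the pocket-protein partner E2F4 fell from 142 ± 4.90 to 98.7 ± 7.44 and 103 ± 15.5 CPM (adjusted p = 0.00169 and 0.0034), and held in all 6 fits of each comparison. E2F4 also fell with D425 hairpin 8 (-0.30, adjusted p = 0.0301), held in 2 of 6 fits. CDK2 fell from 60.0 ± 1.70 to 41.5 ± 4.65 and 41.7 ± 9.42 CPM (adjusted p = 0.00724 and 0.00765), the hairpin 7 call being lost without its replicate 1. RBL2, the pocket protein p130, fell with hairpin 7 from 54.0 ± 3.76 to 41.5 ± 2.93 CPM (adjusted p = 0.00426). FBXW7, which marks cyclin E for degradation, rose from 17.5 ± 0.60 to 25.02 ± 1.39 and 26.2 ± 3.15 CPM (adjusted p = 0.00256 and 0.00118). FBXO4, another F-box protein, was called higher with D458 hairpin 8 (adjusted p = 0.0118), at 57 counts over the group against 13, and the call was lost without hairpin 8 replicate 1.

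The kinases themselves moved less. CDK4 was at 245 ± 17.9 CPM in D425 controls and 243 ± 12.1 and 226 ± 18.04 with hairpins, which did not pass (adjusted p = 0.971 and 0.467). In D458 it fell from 216 ± 18.1 to 174 ± 19.1 and 168 ± 25.6 CPM (adjusted p = 0.0482 and 0.0257), calls held in 1 and 2 of 6 fits without 1 library. They were lost without control replicate 1 or 3 or hairpin replicate 1 or 2, and for hairpin 7 also without control replicate 2. CDK6 had log2 changes of 0.23 to 0.43 and RB1 of -0.06 to 0.11, with adjusted p of at least 0.163 in the 4 comparisons. With the block, CDK6 passed with D425 hairpin 8 (0.42, adjusted p = 0.0131).

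**Figure D4:**
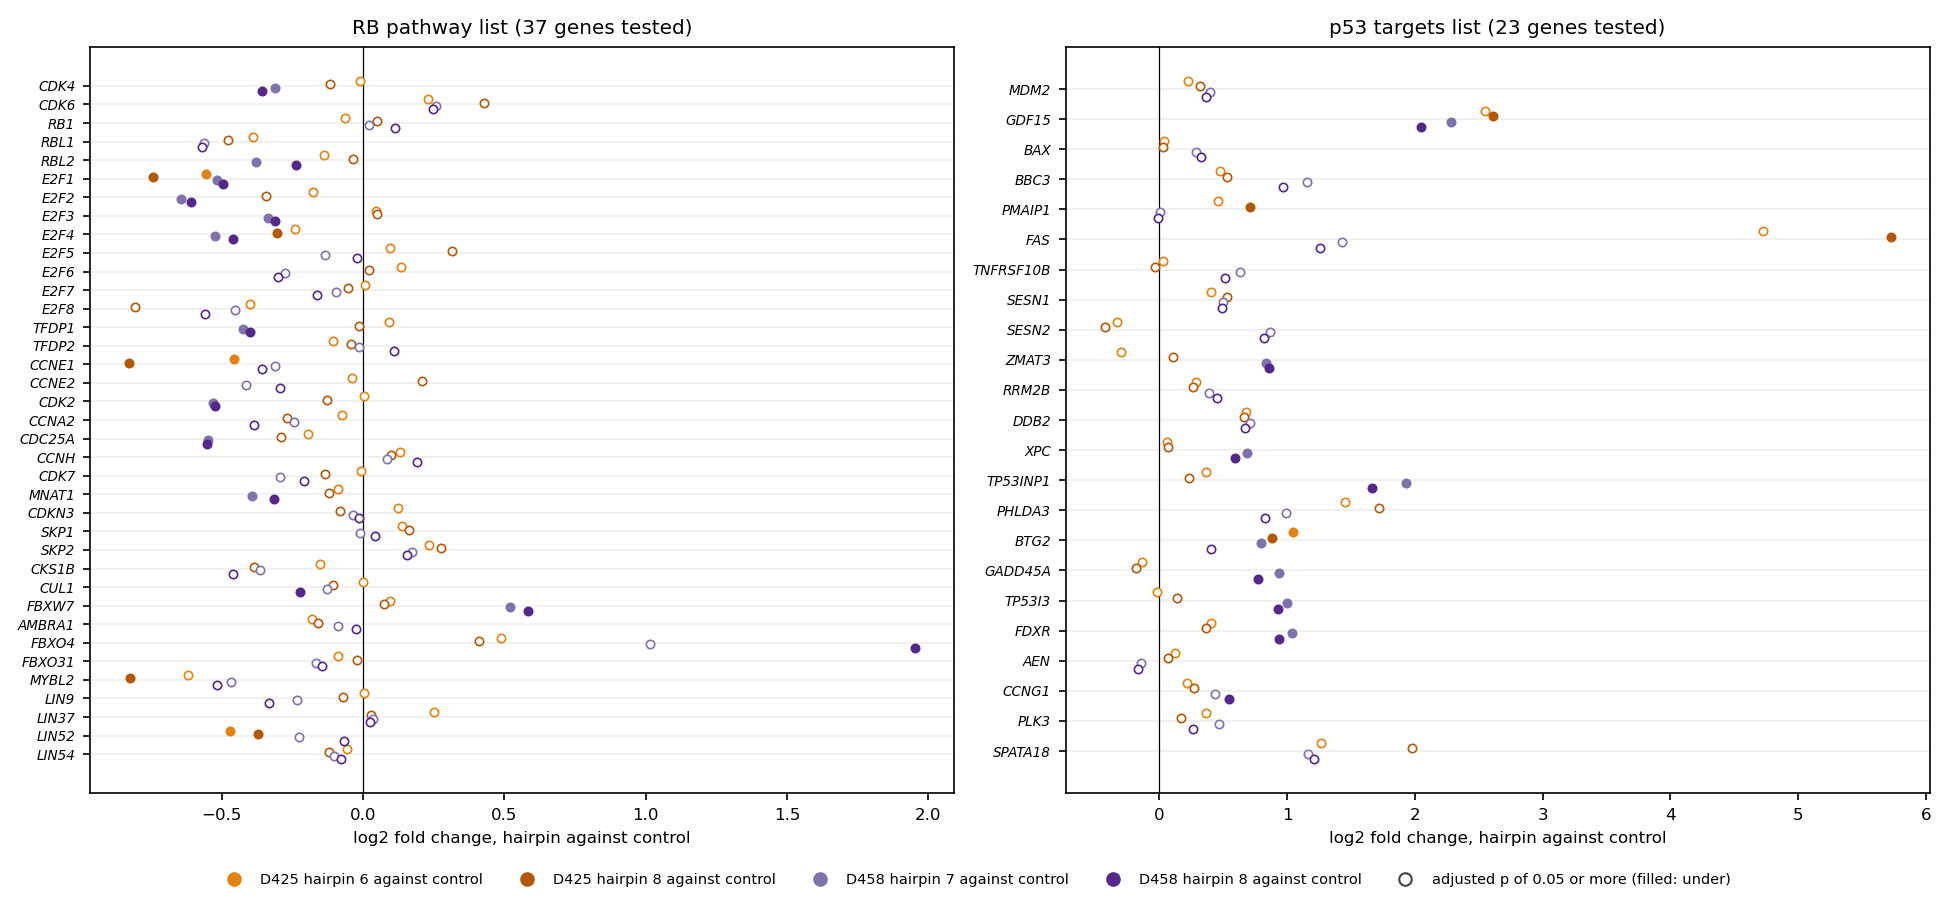
Log2 fold change of each tested gene of the RB pathway and p53 target lists with each hairpin against control; filled points passed the test. E2F1 lies left of 0 and is filled in all 4 comparisons, and filled p53 targets all lie right of 0.

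Because CDKN1A is a p53 target, 24 other p53 targets were read as a list, likewise chosen with earlier results known, and 23 were tested. In D425, 1 rose with hairpin 6 and 4 with hairpin 8, and in D458 8 rose with each hairpin; 0 fell in all 4, also at an unadjusted p under 0.05 by edgeR and by DESeq2. The called shares of the list, all higher, were 4.35%, 17.4%, 34.8% and 34.8%. Of all genes tested, 7.31%, 11.6%, 11.5% and 12.1% were called higher. In either direction, 14.1% and 21.7% of all genes were called in D425, more than the list shares there. In D458 these were 22.6% and 23.2%. With the block 10, 11, 21 and 19 rose and 1, 1, 0 and 0 fell, where 14.5%, 19.5%, 20% and 19.9% of all genes were called higher. The 8 of hairpin 8 in D458 were 1 without its replicate 1, 5 without control replicate 2 or 3, and the D425 hairpin 8 count was 2 without control replicate 1 or 3; the single hairpin 6 call was lost without control replicate 3 or hairpin 6 replicate 2 or 3, and 2 were called without hairpin 6 replicate 1. The 8 of hairpin 7 were 5 without its replicate 1 or control replicate 2 or 3. BTG2, an antiproliferative gene, was the one called with hairpin 6 (22.9 ± 4.54 to 47.3 ± 14.96 CPM, adjusted p = 0.0138). With D425 hairpin 8, PMAIP1, which encodes the apoptosis inducer NOXA, rose from 10.9 ± 0.36 to 17.8 ± 3.30 CPM (adjusted p = 0.00563). FAS, a death receptor, went from 0 counts to 22 there. Taken as exact, the 22 counts were 7.24-fold above a limit of 3 counts over the control group. BTG2 and GDF15, a secreted stress cytokine, were the other genes called there (0.88 and 2.61, adjusted p = 0.0248 and 0.0487), in 3 and 2 of 6 fits; both were lost without control replicate 1 or 3 or hairpin 8 replicate 2, and GDF15 also without hairpin 8 replicate 3. In D458, GADD45A, a DNA damage response gene, rose from 37.6 ± 2.70 to 72.0 ± 4.06 and 64.2 ± 12.8 CPM, and held in all 6 fits of each comparison. FDXR, a mitochondrial reductase, rose there from 44.5 ± 3.63 to 91.6 ± 16.5 and 85.1 ± 23.7 CPM, the hairpin 8 call being lost without its replicate 1. TP53I3 and XPC, a quinone oxidoreductase and a DNA repair factor, also rose with both D458 hairpins, to 36.7 ± 9.93 and 93.8 ± 10.2 CPM with hairpin 7 from 18.4 ± 2.58 and 58.4 ± 0.67, and their hairpin 8 calls were lost without the same library.

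Beside CDKN2B, 17 TGF-beta and SMAD target genes were read as another list, also chosen with earlier results known, and 16 were tested. Of these 4, 3, 2 and 2 rose in the 4 comparisons and 0 fell, also at an unadjusted p under 0.05 by edgeR and by DESeq2; with the block 7, 8, 6 and 3 rose. Of all genes, 7.31%, 11.6%, 11.5% and 12.1% were called higher without the block and 14.5%, 19.5%, 20% and 19.9% with it. The D458 share of the list without the block, 12.5% with each hairpin, was near that of all genes. Leaving out 1 library gave counts of 1 to 4, 1 to 6, 0 to 4 and 0 to 3, the lowest in every comparison without replicate 1 of the hairpin or control replicate 3. The D425 hairpin 6 count was also 1 without its replicate 3 or control replicate 2, and the D458 hairpin 8 count 0 without control replicate 2. With D425 hairpin 8, 5 were called when control replicate 1 was omitted, and omitting hairpin 8 replicate 2 gave 6. The D458 hairpin 7 count was 4 without control replicate 1 and 1 without control replicate 2 or hairpin 7 replicate 2. In D425, JUNB, an AP-1 subunit, rose from 45.0 ± 4.64 to 62.6 ± 1.72 and 66.9 ± 4.98 CPM (adjusted p = 0.00416 and 0.0008), and held in all 6 fits of each comparison. SMAD7, the pathway's feedback inhibitor, rose there from 8.29 ± 0.82 to 13.1 ± 2.38 and 13.3 ± 2.65 CPM, calls lost without control replicate 3 or hairpin replicate 1, and with hairpin 6 also without its replicate 3 or control replicate 2. CTGF, a matricellular factor, rose from 0.820 ± 0.355 to 3.10 ± 0.94 and 3.77 ± 2.76 CPM; its hairpin 6 call held in 1 of 6 fits without 1 library and its hairpin 8 call in 3 of 6. In D458, TGFBI, an extracellular matrix protein, rose from 0.643 ± 0.064 to 2.53 ± 1.18 and 2.32 ± 1.19 CPM, and ID2, an inhibitor of helix-loop-helix factors, from 12.99 ± 3.29 to 18.8 ± 2.92 and 19.5 ± 4.40 CPM, all 4 calls being lost without the hairpin's replicate 1 or control replicate 3. All but the TGFBI call of hairpin 7 were also lost without control replicate 2.

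For each tested member, the 2 genes with the most similar profile were taken from 12738 genes averaging at least 1 CPM, by Pearson's r of log2(CPM + 1) over the 18 libraries after the mean of each line was removed. The libraries share line, replicate number and depth, so r is given as a description. CDKN1A was most like FAM212B (0.977) and GDF15 (0.964), and GDF15 is on the p53 target list. CDKN1B was most like HMMR and CEP250 (both 0.912), a mitotic spindle gene and a centrosome gene. CDKN1C was most like ACTC1 and MYLPF (0.948 and 0.943), CDKN2A like FGF12 and FEZF1 (0.943 and 0.941), and CDKN2B like PPFIBP1 and MLLT11 (0.962 and 0.958). CDKN2C was most like N4BP3 and CHFR (0.948 and 0.935), and CCND3 like EML6 and RYR1 (0.912 and 0.888). The weakest likenesses were those of CDKN2D, to ARGLU1 and SNORA76C (0.842 and 0.837), and of CCND2, to PHF21B and GLCCI1 (0.841 and 0.833).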

How the data were processed

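Gene counts were deposited by the authors for 18 libraries as whole-number counts per gene symbol, raw and not normalized. Per the submitters' processing notes, tools named are TopHat2, Bowtie2 and HTSeq with builds GRCh37 and hg19; no source used here gives their settings or strand. Library totals were 21260369 to 31552051, so counts under about 10 are imprecise; intervals cover counting error only. Counts were tested with edgeR 4.0.16 in R 4.3.3 (quasi-likelihood, robust, TMM scaling, filterByExpr with a minimum count of 10, all 18 libraries, 1 coefficient per group, adjusted p under 0.05 over 14850 genes). The self-test ran on simulated data. Alternatives were DESeq2 1.42.0, RLE scaling, no filter, the 9 libraries of a line alone, the replicate number as a block, and leaving out each library or replicate number. Same-numbered libraries share a prefix in their sample descriptions, whose meaning is not stated, and deviated together within lines: every correlation of their deviations from group means was above 0.1 (0.145 to 0.769 in D425 and 0.32 to 0.895 in D458, against -0.563 to 0.279 and -0.808 to 0.43 for different numbers), so blocked values stand beside results whose call they change. Members, gene lists and tests were chosen with earlier results of these data known. All 10 members were named, with up to 4 called genes of smallest adjusted p per list and comparison and the 2 most alike genes per member, except 1 gene that is not reported here; CDK4, CDK6, RB1 and the D458 values of E2F1 were named after their values were seen. The sample descriptions also hold the date-like string named above, which sets replicate 1 apart in every group. No 2 libraries of a group agreed within sampling noise.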

Additional observations from a re-analysis of the deposited data

Results flagged for a closer look

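The hairpin 8 change of CDKN2C differed between the lines by a test of the difference itself: it was 2.02 higher on the log2 scale in D458 than in D425 (edgeR adjusted p = 5.6e-05), and every D458 hairpin library lay above its controls while every D425 hairpin library lay below. The hairpin 8 change of CCND2 also differed, by -3.79 (adjusted p = 0.0258), on a D425 control level of 2 counts.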

How the results depend on the processing

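With the replicate number as a block, the members called in D425 hairpins 6 and 8 and D458 hairpins 7 and 8 numbered 8, 9, 7 and 5 (27.8%, 37.2%, 40% and 39.6% of all genes called), the hairpin 8 difference between lines 4 (26.5%) and the control comparison 6 (67.8%). DESeq2 gave 7 for D425 hairpin 6 and 3 for D458 hairpin 8, where it called 2541 and 3939 of all genes. The line alone gave 3 for D458 hairpin 8, where 2731 genes were called. Leaving out 1 library or replicate number gave 0 to 4 members with D425 hairpin 6, 1 to 6 with D425 hairpin 8, 1 to 5 with D458 hairpin 7, 1 to 3 with D458 hairpin 8, 1 to 5 for the difference between lines and 3 to 5 between controls. Over all genes these hairpin comparisons gave 116 to 3439, 513 to 4146, 663 to 2910 and 818 to 3311 calls. The difference between lines gave 75 to 2322, and the controls 7182 to 9474. Over 55 member results and their alternatives, 670 kept sign and side of the threshold, 60 gained a call, 52 lost one and 24 changed sign.

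All 24 sign changes were of results that missed the threshold. CDKN1B between controls was -0.00095 with the block, -0.018 with DESeq2, -0.018 with RLE scaling, -0.0076 with no filter and -0.10 to 0.11 when libraries were left out. CDKN2D with D458 hairpin 7 was 0.010 with DESeq2 and 0.010 with RLE scaling, and -0.10 to 0.069 with libraries left out. The latter ranges were -0.79 to 1.17 for CDKN2B between controls, -0.058 to 0.18 and -0.050 to 0.17 for CCND2 with D458 hairpins 7 and 8, -0.13 to 0.41 for CCND3 with D458 hairpin 8 and -0.24 to 0.0064 for the CDKN1B difference between lines. The cause was not tested. Counts of the pathway lists and their called genes were recomputed under the same alternatives, a step chosen after seeing the data. Depth limits CCND1, D425 CCND2 and D425 CDKN1C most.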
